A study of Mus musculus with 5 samples.

Results

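The genes described here are 9 listed copies of the mouse Rhox cluster, a run of reproductive homeobox genes on the X chromosome. They are Rhox2a, Rhox2b, Rhox2c, Rhox2d, Rhox2e, Rhox2h, Rhox4a, Rhox4b and Rhox7a, out of 25 Rhox symbols with rows in a table of 24538 genes, most of which carry an assembly ID in place of a symbol. They were measured in cultured mouse embryonic stem cells (mESC), as polyadenylated RNA. One group had 2 libraries, deleted 1 and deleted 2, from cells lacking the -45 super-enhancer of the pluripotency gene Nanog. The other had 3 libraries, wildtype 1, 2 and 3, from cells of wildtype genotype. Per the labels' protocols, cells were given ethanol vehicle or tamoxifen (4OHT) for 6 days. Which library received which agent, and whether the replicates were independent cultures or clones, is not stated in the labels. A p-value below thus rests on library-to-library spread that could be purely technical. The members were chosen because they were higher in the deleted libraries, so their own differences are described without a test.

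Rhox genes encode homeodomain transcription factors, proteins that bind DNA and switch other genes on or off. The cluster arose by repeated tandem duplication, and in the mouse Rhox2, Rhox3 and Rhox4 exist as several near-identical copies. Its members are known for expression in testis, ovary, placenta and embryonic stem cells. Several are held silent in somatic lineages by DNA methylation. Rhox4b was first described as Ehox, a homeobox gene of differentiating embryonic stem cells.

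How alike the copies are sets what their counts can say, so their sequences come first. Coding sequences of the 6 listed Rhox2 copies were each 573 bases long and differed at 44 positions in all, with pairwise identity between 94.1% and 99.7% (15 pairs). Rhox4a and Rhox4b were 98.7% identical over 615 bases. Between families, Rhox2 and Rhox4 copies were 63.1% to 65.0% identical, and Rhox7a reached at most 50.8% with any of the others. The stretch of 60 coding bases with the most variable positions, 8, shows how little separates the Rhox2 copies. Sequences are from GENCODE M21 transcripts of GRCm38, bases 169 to 228 of each coding sequence. Capitals mark bases that differ from Rhox2a, and Rhox2b and Rhox2e are identical to Rhox2a here.
Rhox2a: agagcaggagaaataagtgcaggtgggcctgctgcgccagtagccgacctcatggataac
Rhox2c: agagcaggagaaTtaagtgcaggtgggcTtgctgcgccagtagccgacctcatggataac
Rhox2d: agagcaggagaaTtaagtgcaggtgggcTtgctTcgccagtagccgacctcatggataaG
Rhox2h: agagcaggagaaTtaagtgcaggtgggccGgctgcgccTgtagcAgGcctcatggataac

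A window of 50 bases taken from one copy was therefore often found in another. Of all such windows, 100% in Rhox2e, 98.3% in Rhox4a, 93.4% in Rhox2a, 89.9% in Rhox4b, 86.7% in Rhox2c and 82.3% in Rhox2b also occurred in a transcript of another gene. The share was lower in Rhox7a (58.8%), Rhox2h (53.7%) and Rhox2d (44.7%). In all 9 copies these matches lay within the same family. Neither the read length nor the treatment of reads with several matching places is stated in the labels or file headers. Counts of single copies are therefore uncertain, and sums over Rhox2 and over Rhox4 copies are given beside them.

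The region before the transcription start was shared too. RefSeq (GRCm38.p6) gave a start for 8 of the 9 members, all but Rhox7a. The 250 bases before it are shown for 2 copies each of Rhox2 and Rhox4, as a description of sequence. Capitals mark CG dinucleotides, the sites of DNA methylation. The files use build mm9, so these positions were matched by gene symbol alone.
Rhox2a promoter, chrX:37244742-37244991, strand +: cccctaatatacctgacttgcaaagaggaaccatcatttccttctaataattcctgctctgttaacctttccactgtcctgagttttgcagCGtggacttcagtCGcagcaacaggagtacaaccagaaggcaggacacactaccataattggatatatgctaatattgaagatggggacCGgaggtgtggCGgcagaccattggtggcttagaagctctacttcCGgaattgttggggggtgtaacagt
Rhox2h promoter, chrX:37673278-37673527, strand -: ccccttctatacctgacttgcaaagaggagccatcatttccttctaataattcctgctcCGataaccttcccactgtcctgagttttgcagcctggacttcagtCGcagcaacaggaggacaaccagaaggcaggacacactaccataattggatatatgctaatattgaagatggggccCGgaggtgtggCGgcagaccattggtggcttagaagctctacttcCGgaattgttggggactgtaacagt
Rhox4a promoter, chrX:37265125-37265374, strand +: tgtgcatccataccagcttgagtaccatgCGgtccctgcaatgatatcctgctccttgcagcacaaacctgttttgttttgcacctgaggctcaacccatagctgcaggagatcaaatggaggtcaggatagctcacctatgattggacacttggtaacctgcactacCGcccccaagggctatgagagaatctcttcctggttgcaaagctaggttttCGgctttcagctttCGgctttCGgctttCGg
Rhox4b promoter, chrX:37432244-37432493, strand +: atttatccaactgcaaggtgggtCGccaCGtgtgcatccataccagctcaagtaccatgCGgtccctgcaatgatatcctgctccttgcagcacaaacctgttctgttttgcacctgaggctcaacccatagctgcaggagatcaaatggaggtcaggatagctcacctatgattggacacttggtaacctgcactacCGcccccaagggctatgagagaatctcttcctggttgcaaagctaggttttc

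Listed Rhox2 promoters held 4 to 6 CG dinucleotides and the 2 Rhox4 promoters 6 and 4, against a median of 6 over 32851 promoters of the same length. The letters ACTTCCGG, the core bound by ETS-family transcription factors, occurred in 6 of 6 listed Rhox2 promoters when searched on both strands. They started 30 bases before the transcription start in Rhox2a and Rhox2h. Of all promoters, 2.88% held them, and neither Rhox4 promoter did. The 6 Rhox2 copies share this stretch by descent, so they are not separate cases. CCAAT, searched on both strands, occurred in all 8 promoters and in 33.8% of all promoters. The E-box CACGTG, which reads the same on both strands, was found in Rhox4b and in 6.02% of all promoters. The Rhox4a window began inside the stretch matching this site, so its presence in Rhox4a could not be read. This offset between the 2 Rhox4 windows also bears on their CG counts. A match describes these letters and does not show that a factor binds.

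Read counts were low throughout. One count was worth 0.0101 to 0.0107 CPM (counts scaled to a common library size) in the deleted and 0.00463 to 0.00875 CPM in the wildtype libraries. Bin counts totalled 93574609 and 99134363 in the deleted libraries and 114838600 to 213042746 in the wildtype libraries, with wildtype 3 the deepest. A read that spans several exon bins is counted in each, so intervals below cover counting error only and are somewhat too narrow. Rows under a gene symbol held 0.328% to 0.375% of each library's counts. Of the 3591 symbols tested, 32.1% passed an adjusted p under 0.05 with edgeR, 683 higher (19%) and 469 lower (13.1%) in the deleted libraries. Over all 16259 tested genes, 39.7% passed, 3245 higher (20%) and 3208 lower (19.7%). Called symbols numbered 613 without deleted 1 and 642 without deleted 2, and called genes 3555 and 4141. That split became 2449 higher and 4086 lower when scaling factors came from symbol rows alone. Markers of embryonic stem cells could not be examined, since 0 of the 15 listed have rows under a symbol. Summed markers of fibroblasts, common feeder cells, stood at 13.6 and 13.7 CPM in the deleted and at 9.19 to 12.5 CPM in the wildtype libraries. Summed genes of the 2-cell-like state stood at 17.6 and 17.1 CPM in deleted 1 and 2 against 2.97 to 3.26 CPM in wildtype. In bulk RNA, more expressing cells and more RNA per cell cannot be told apart, and the part of either marker group in the Rhox values was not tested.

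All 9 members were higher in both deleted libraries than in every wildtype library. This was the property they were chosen by, and 32.8% of all tested symbols showed it. Summed over the 9 members, there were 162 and 215 counts in the deleted libraries and 40, 54 and 61 counts in wildtype 1, 2 and 3. Scaled to library size, this was 1.74 and 2.17 CPM against 0.321, 0.472 and 0.282 CPM. Deleted 2 was the higher of the deleted libraries and wildtype 2 the highest of the wildtype ones, with a clear gap between the groups. The fitted log2 fold change, deleted minus wildtype, was 2.48 ± 0.21 (SE). It lay between 2.29 and 2.71 when each library was left out in turn.

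**Figure D1:**
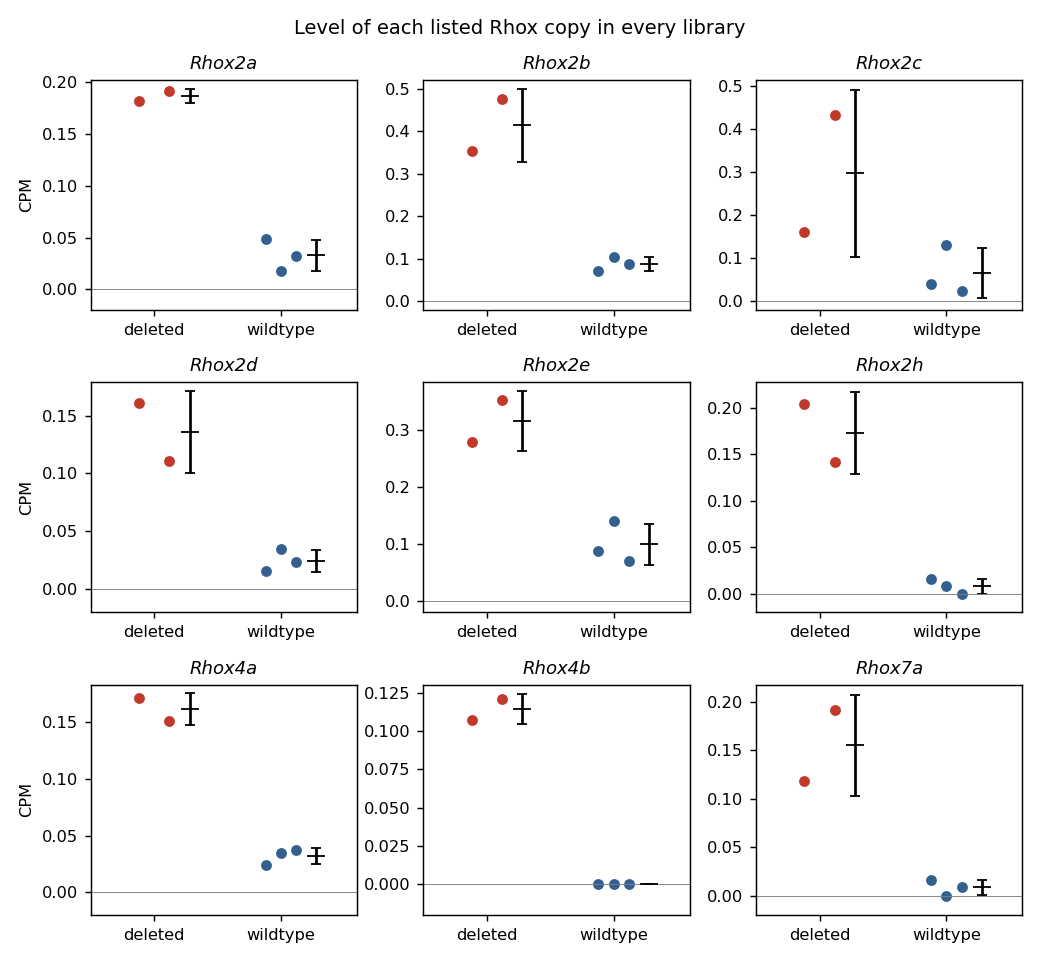
Level of each of the 9 listed Rhox copies in CPM, one panel per gene with its own linear scale. Points are libraries (2 deleted, 3 wildtype), and the black mark beside them gives the mean with 1 SD; in every panel both deleted libraries lie above all wildtype libraries, and Rhox4b is at 0 in all 3 wildtype libraries.

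Among the Rhox2 copies, which encode small homeodomain proteins of the reproductive tract, Rhox2b had the most counts. It had 33 and 47 counts in the deleted libraries and 9, 12 and 19 in wildtype 1, 2 and 3, or 0.414 ± 0.0854 CPM (SD, n = 2) against 0.0884 ± 0.0163 CPM (SD, n = 3). On the log2 scale this was a difference of 2.22 ± 0.29 (SE). Rhox2b and Rhox2e were the 2 members that met the low-count filter in at least 2 wildtype libraries.

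Rhox2e had 26 and 35 counts in the deleted and 11, 16 and 15 in the wildtype libraries. Its log2 fold change of 1.74 ± 0.35 (SE) was the smallest of the 9, on levels of 0.316 ± 0.0528 CPM (SD, n = 2) and 0.0993 ± 0.0365 CPM (SD, n = 3). Rhox2c differed most between libraries of the same group. It had 15 counts in deleted 1 and 43 in deleted 2, against 5, 15 and 5 in the wildtype libraries. The groups came close here, with 0.161 CPM in deleted 1 and 0.131 CPM in wildtype 2. The log2 fold change of Rhox2c was 2.39 ± 0.71 (SE). It depended on single libraries, at 1.46 without deleted 2, 1.81 without wildtype 3 and 3.30 without wildtype 2.

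Rhox2a, counted in a single exon bin, had 17 and 19 counts in the deleted libraries and 6, 2 and 7 in the wildtype libraries. Its deleted libraries lay close together, at 0.182 and 0.192 CPM, against 0.0175 to 0.0482 CPM in wildtype. Rhox2d had 15 and 11 counts in the deleted libraries and 2, 4 and 5 in the wildtype libraries. The log2 fold changes were 2.47 ± 0.44 for Rhox2a and 2.44 ± 0.51 for Rhox2d (SE).

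Rhox2h, the least alike of the listed Rhox2 copies, was near absent from wildtype cells. It had 19 and 14 counts in the deleted libraries against 2, 1 and 0 in wildtype 1, 2 and 3. Pooled over libraries the ratio was 26.0, with an exact 95% counting interval of 8.16 to 133. The wildtype libraries held 3 counts in all. The fitted log2 value of Rhox2h, 4.50 ± 0.71 (SE), became 5.42 without wildtype 1 and 3.65 without wildtype 3. Summed over the 6 listed Rhox2 copies, levels were 1.52 ± 0.259 CPM (SD, n = 2) in the deleted and 0.318 ± 0.106 CPM (SD, n = 3) in the wildtype libraries. The fitted log2 difference was 2.31 ± 0.25 (SE).

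Rhox4 copies encode homeodomain proteins found in embryonic stem cells and placenta. Rhox4a had 16 and 15 counts in the deleted libraries and 3, 4 and 8 in wildtype 1, 2 and 3. Mean levels of 0.161 ± 0.0142 CPM (SD, n = 2) in deleted and 0.0320 ± 0.00694 CPM (SD, n = 3) in wildtype libraries gave a log2 fold change of 2.26 ± 0.42 (SE). Rhox4b had 10 and 12 counts in the deleted libraries and 0 in every wildtype library. Set against a floor of 3 counts over the 3 wildtype libraries together, the pooled level of Rhox4b was 17.3-fold higher. This figure takes the deleted counts as exact, so it is no lower limit like those of the counting intervals. Since reads of Rhox4 copies can be exchanged between them, the 0 does not show that this copy alone was silent in wildtype cells.

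Summed over both listed Rhox4 copies, counts were 26 and 27 in the deleted and 3, 4 and 8 in the wildtype libraries, a log2 fold change of 3.03 ± 0.36 (SE). Over all 7 Rhox4 symbols, listed or not, deleted libraries averaged 0.615 ± 0.0554 CPM (SD, n = 2) and wildtype libraries 0.0892 ± 0.0299 CPM (SD, n = 3), and the log2 fold change was 2.84 ± 0.29 (SE). Over all 8 Rhox2 symbols the log2 fold change was 2.31 ± 0.25 (SE).

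Rhox7a, the most diverged member, had 11 and 19 counts in the deleted libraries and 2, 0 and 2 in the wildtype libraries. Deleted libraries averaged 0.155 ± 0.0523 CPM (SD, n = 2) and wildtype libraries 0.00844 ± 0.00807 CPM (SD, n = 3), a pooled ratio of 17.7 with an exact 95% counting interval of 6.25 to 69.3. Its wildtype level lay under that of 3 counts in each library. The gene shares no 50-base window with Rhox2 or Rhox4, so its counts cannot come from reads of that length that match those families exactly. Within the Rhox7 family, however, 58.8% of its windows also occurred in another gene. Rhox7a was the only Rhox7 symbol with a row, so its counts may include reads of that family and no family sum could be given.

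Levels of different copies were compared per kilobase of the longest GENCODE coding transcript. The comparison is rough. Rhox2a has a single exon bin, whereas a read spanning several bins of another member is counted in each. Reads can also be exchanged between copies of a family. In the deleted libraries Rhox2b stood highest at 0.518 ± 0.107 CPM per kb, followed by Rhox2e at 0.395 ± 0.0661 and Rhox2c at 0.390 ± 0.254 CPM per kb (SD, n = 2 each). Rhox2a, Rhox2h, Rhox2d, Rhox4a, Rhox7a and Rhox4b followed between 0.235 and 0.129 CPM per kb. Rhox2b and Rhox2e nearly touched, at 0.4426 CPM per kb in the lower Rhox2b library and 0.4422 in the higher Rhox2e library. The ranges of all other neighbours overlapped, so the order of neighbours is not resolved. In wildtype libraries Rhox2e was highest at 0.124 ± 0.0457 CPM per kb and Rhox2b next at 0.111 ± 0.0205 CPM per kb (SD, n = 3 each), again with overlapping ranges. Even the most abundant member, by its mean CPM, lay above only 32.0% of all tested symbols.

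**Figure D2:**
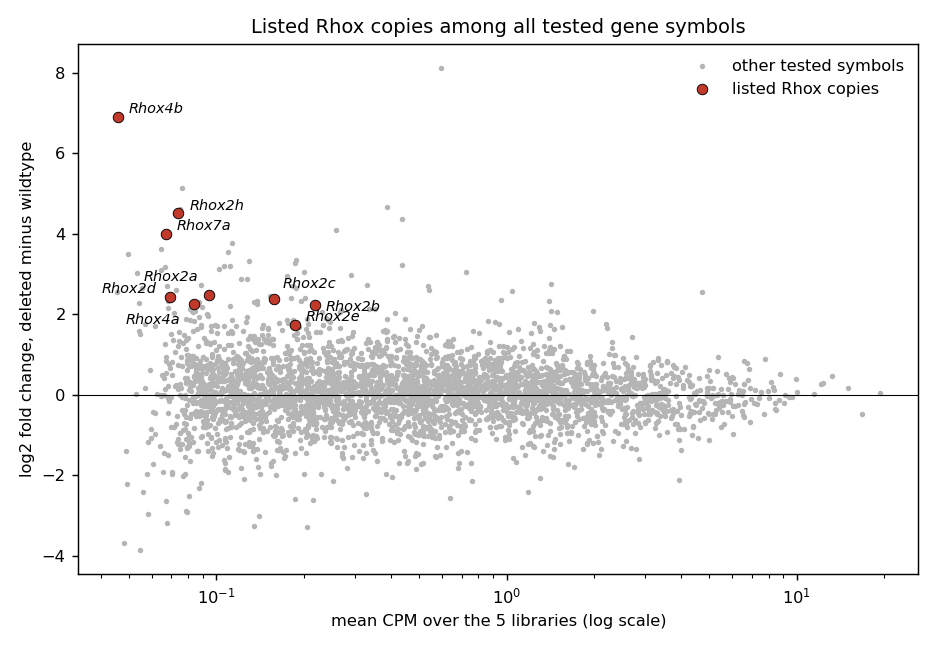
Log2 fold change, deleted minus wildtype, against the mean CPM over the 5 libraries on a log scale, for tested gene symbols. Grey points are other symbols and red points the 9 listed Rhox copies, which lie at low levels and above 1.7 on the fold axis; the fitted value of Rhox4b depends on the count that the fit adds to its 0 counts in wildtype.

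The members' rows also give counts per exon bin. The 9 members had 37 bins, of which 33 held at least 1 count. Pooled CPM was higher in the deleted libraries in 30 bins and higher in wildtype in 3, which were bin 1 of Rhox2d and bins 3 and 4 of Rhox4a. In 16 of the 33 bins with a count both deleted libraries lay above all wildtype libraries. Over all symbol bins with a count the share was 16%, but the members were chosen for this difference, so nothing is read from it. In 8 bins the deleted counts came from 1 of the 2 libraries, and Rhox2a has a single bin.

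Counts concentrated in bin 2 of the Rhox2 copies with most counts. Bin 2 held 75.0% of the deleted and 70.0% of the wildtype counts of Rhox2b, 65.6% and 59.5% of those of Rhox2e, and 60.3% and 52.0% of those of Rhox2c. The shares were thus similar in both groups for these 3 copies. In Rhox4a bin 2 had 11 and 10 counts in the deleted libraries and 2, 0 and 0 in the wildtype libraries. Bin 4 of Rhox4a had 0 counts in both deleted libraries and 4 in wildtype 3, the only library with any. In Rhox4b, deleted 1 had counts in bins 2, 3 and 4, whereas deleted 2 had them in bins 1 and 2.

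**Figure D3:**
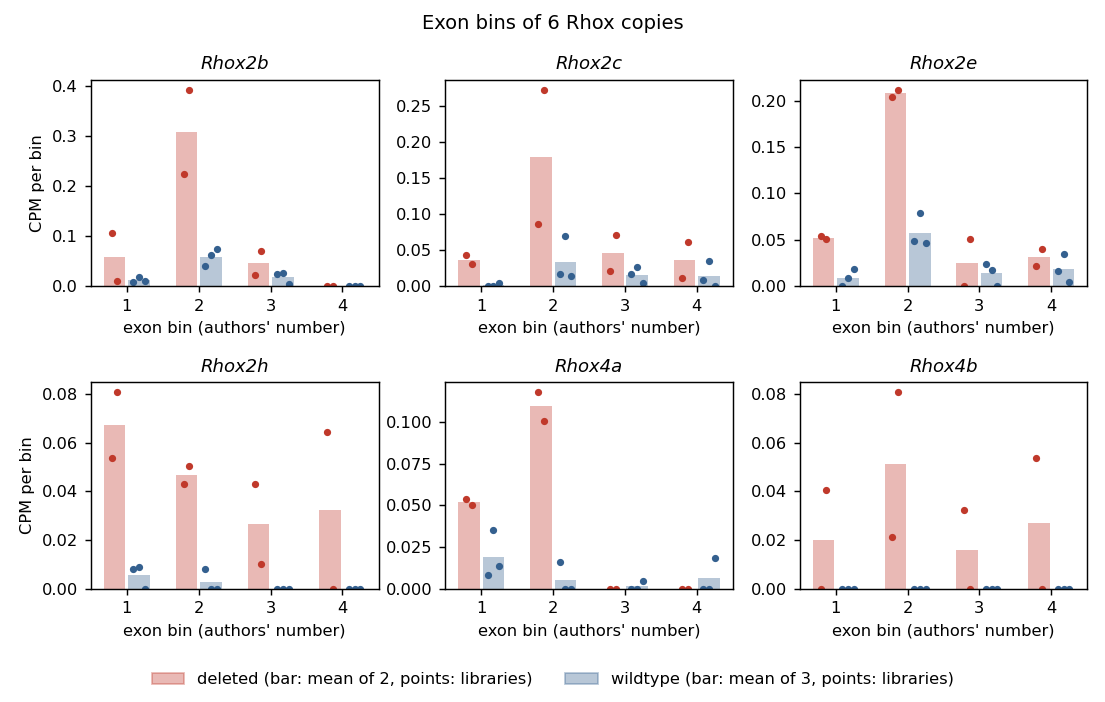
CPM per exon bin for 6 Rhox copies, numbered as in the authors' table, on a linear scale per panel. Bars are means and points are libraries (2 deleted, 3 wildtype); bin 2 is highest in both groups in Rhox2b, Rhox2c and Rhox2e, while Rhox4b has no wildtype count in any bin.

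The remaining 16 Rhox symbols were not listed, and 0 of them reached the low-count filter, which asks for about 0.0871 CPM in at least 2 libraries. Just inside it lay Rhox4b, with 0.107 and 0.121 CPM in the deleted libraries. Just outside lay Rhox4c with 0.0964 and 0.0707 CPM, Rhox4d with 0.0750 and 0.0908 CPM, Rhox4g with 0.150 and 0.0707 CPM and Rhox2g with 0.0536 and 0.141 CPM in deleted 1 and deleted 2. The 9 listed copies are therefore the Rhox symbols with enough counts for the test, and 7 of them had enough only because of the deleted libraries. Of the 276 tested symbols that passed the filter in this way, 60.1% had both deleted libraries above all wildtype ones and 40.9% were called higher.

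The unlisted copies could be tested when the filter was dropped. Then 4 of the 9 unlisted symbols with any count rose with edgeR, Rhox4d, Rhox4c, Rhox2g and Rhox4g, and none fell. In that fit 9.39% of 7266 symbols were higher, a share that includes the symbols under the filter. With the filter, 19% of 3591 symbols were higher. Rhox4d had 7 and 9 counts in the deleted libraries against 0, 1 and 1 in the wildtype libraries (edgeR adjusted p = 0.00432), and Rhox4c 9 and 7 against 2, 1 and 0 (edgeR adjusted p = 0.0112). Rhox2g had 5 and 14 against 3, 0 and 4 (edgeR adjusted p = 0.0255), and Rhox4g 14 and 7 against 3, 6 and 3 (edgeR adjusted p = 0.0389). These copies share 54.8% to 78.7% of their 50-base windows with other genes in the case of Rhox2g, Rhox4c and Rhox4d, and 88.7% in the case of Rhox4g. They are thus not independent of the listed copies.

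Rhox4e, Rhox2f, Rhox4f, Rhox3g and Rhox11 did not pass (edgeR adjusted p = 0.0657, 0.196, 0.339, 0.661 and 0.925). Rhox11, a single-copy gene of the testis, had 3 and 0 counts in the deleted and 3, 1 and 2 in the wildtype libraries. The Rhox3 family stood apart from Rhox2 and Rhox4 in having almost no counts. Its 6 symbols together had 0 counts in both deleted libraries and 1, 0 and 0 in wildtype 1, 2 and 3. At this depth 0 counts allow up to 0.0321 CPM in deleted 1 and 0.0303 CPM in deleted 2. That limit covers depth alone. Of the 50-base windows of the Rhox3 copies, 60.5% to 96.7% also occurred in another gene, and the treatment of such reads is not stated. Rhox12 and Rhox8 had 0 counts in all 5 libraries. Rhox5, Rhox6, Rhox9, Rhox10 and Rhox13 were not analysed here.

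Genes beside the cluster gave no information. Of 24 symbols listed as neighbours, 2 had rows, Sowahd with 0 counts in the deleted and 1 in the wildtype libraries and Atp1b4 with 1 and 2. Among the other tested symbols of the X chromosome, 40 were higher (23.8%) and 24 lower of 168 (38.1% called), beside 32.1% over all symbols. Of other reproductive gene families of the X chromosome, 14 genes were tested, of which 7 were higher and 0 lower, beside 19% higher over all tested symbols. Their median log2 fold change was 0.81, and that of all tested symbols 0.07. Nxf3, an RNA export factor gene of the germline, reached 2.93 ± 0.146 CPM (SD, n = 2) in the deleted libraries and 0.427 ± 0.0675 CPM (SD, n = 3) in wildtype, 2.76 ± 0.15 apart on the log2 scale (SE; edgeR adjusted p = 6.95e-06). Mageb4, a melanoma antigen family gene, averaged 1.37 ± 0.109 CPM in deleted and 0.552 ± 0.00892 CPM in wildtype libraries (edgeR adjusted p = 0.000206).

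Magea8 and Magea5, of the same antigen family, had log2 fold changes of 4.10 ± 0.39 and 4.65 ± 0.45 (SE; edgeR adjusted p = 0.000108 and 0.000159). Copies of this family resemble one another. Magea8 and Magea5 were among 4 of the 14 tested genes that met the filter only through the deleted libraries. Of all such symbols 40.9% were called higher, so these p-values are not read as support. With at least 10 counts required in every library, 3 of 10 were higher. Of the listed genes, 30 of 57 had rows and 11 of those had 0 counts in all libraries.

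Germline genes known to be silenced by DNA methylation moved both ways, with 2 higher and 2 lower of 7 tested. Their median log2 fold change was -0.21. Over all tested symbols 19% were higher and 13.1% lower. Asz1, a piRNA pathway gene, averaged 1.53 ± 0.0428 CPM in deleted and 0.188 ± 0.0431 CPM in wildtype libraries, 3.04 ± 0.19 apart on the log2 scale (SE; edgeR adjusted p = 1.40e-05). Tex101, a sperm surface protein gene, was also higher, whereas Tdrd1, another piRNA gene, and Brdt, a testis bromodomain gene, were lower (edgeR adjusted p = 0.0198, 0.0208 and 0.0394). None of these 3 calls held when deleted 1 was left out (edgeR adjusted p = 0.146, 0.165 and 0.164) or without deleted 2 (edgeR adjusted p = 0.0618, 0.0553 and 0.134). Tex101 was also lost without wildtype 1 or wildtype 2 (edgeR adjusted p = 0.0614 and 0.0544), and Brdt without wildtype 2 or wildtype 3 (edgeR adjusted p = 0.0709 and 0.0734). The count of 4 calls thus fell to 1, Asz1, without either deleted library. Of the DNA methylation machinery, 3 of 19 listed genes had rows. Tet3, which oxidizes methylcytosine, was lower, at 1.88 ± 0.0234 CPM in deleted and 3.04 ± 0.420 CPM in wildtype libraries, with a log2 difference of -0.70 ± 0.14 (SE; edgeR adjusted p = 0.00420). Zbtb4, a methyl-CpG binding zinc-finger gene, had a log2 difference of -0.46 and missed the threshold (edgeR adjusted p = 0.229). Of 16 repressors of germline genes, 0 had rows.

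Paired-like homeobox genes, the wider class to which Rhox belongs, moved in both directions. Of 11 tested, 3 were higher and 2 lower, with a median log2 fold change of 0.12. Over all tested symbols 19% were higher and 13.1% lower. Of the 11, 3 met the low-count filter only through the deleted libraries, Dux among them. Among all such symbols, 40.9% were called higher. Dux, an activator of the 2-cell programme, had a log2 difference of 2.60 ± 0.58 (SE; edgeR adjusted p = 0.00703), and it missed the threshold once deleted 2 was left out (edgeR adjusted p = 0.114). Gsc, an organizer gene, had 1.09 ± 0.30 (SE; edgeR adjusted p = 0.0200), a call lost when one deleted library was left out, at edgeR adjusted p = 0.108 and 0.106. The list's 5 calls became 3 without deleted 1 and 1 without deleted 2. Dmbx1, a brain homeobox gene, fell by 0.65 on the log2 scale (edgeR adjusted p = 0.00352).

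Rhox genes are also expressed in other cell types, whose markers were examined. Of 10 primordial germ cell genes 1 had a row, Nanos2, with 1 and 1 counts in the deleted and 0, 1 and 0 in the wildtype libraries. Sertoli cells, the somatic support cells of the testis, had 4 tested markers, of which Wt1 was lower at -1.19 ± 0.18 (SE; edgeR adjusted p = 0.000938) and the others did not pass. Their summed level was 1.55 and 1.74 CPM in the deleted and 2.40 to 2.98 CPM in the wildtype libraries. Of 6 tested trophoblast genes, which mark the placental lineage, 3 were lower and 0 higher. Over all tested symbols 13.1% were lower and 19% higher. Fgfr2, a fibroblast growth factor receptor gene, had a log2 fold change of -1.34 ± 0.14 and Gata2 one of -0.80 ± 0.15 (SE; edgeR adjusted p = 0.000140 and 0.00256). Cdx2, a transcription factor gene of the trophectoderm, had -1.32 ± 0.43 (SE; edgeR adjusted p = 0.0385). Its call was lost when wildtype 1 or deleted 1 was left out (edgeR adjusted p = 0.0737 and 0.260), with DESeq2 (adjusted p = 0.0534), in the most counted bin and with a replicate block (edgeR adjusted p = 0.0550 and 0.0627). Summed trophoblast markers stood at 3.34 and 2.97 CPM in deleted 1 and 2 and at 5.26 to 5.94 CPM in wildtype. Of 7 fibroblast markers 5 were higher and 0 lower, beside the same 19% higher over all tested symbols. That count fell when either deleted library was left out, and became 3 without wildtype 1 or wildtype 2. Of the 7, 1 met the low-count filter only through the deleted libraries.

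**Figure D4:**
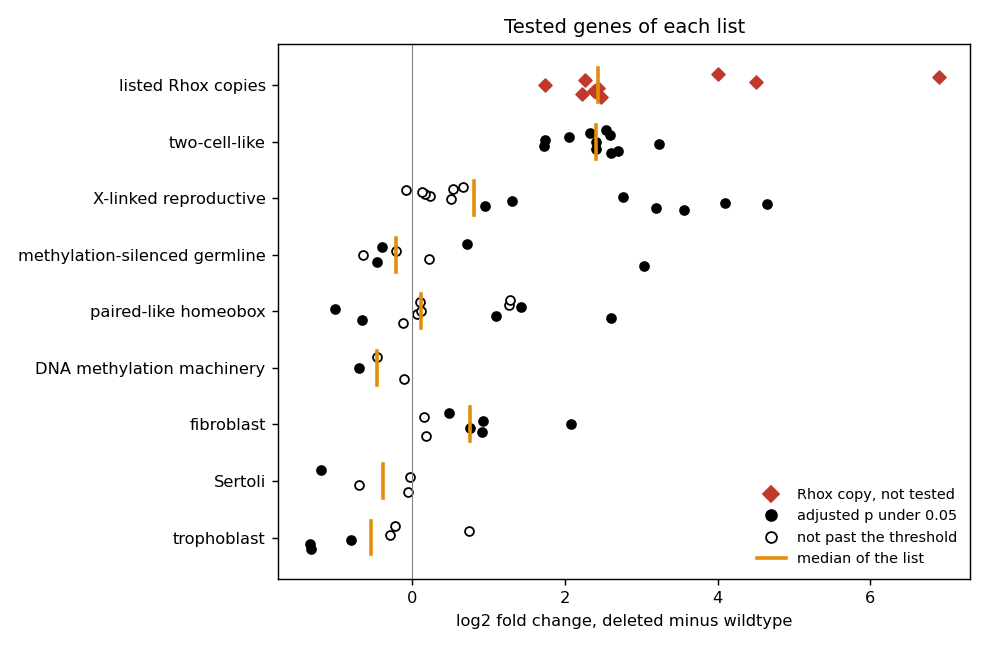
Log2 fold change, deleted minus wildtype, of the tested genes of each list; orange bars are medians. Red diamonds are the 9 listed Rhox copies, which were chosen on this contrast and not tested; filled circles passed an adjusted p under 0.05 with edgeR and open circles did not, and the 2-cell-like genes are the other list lying wholly above 1.

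Genes whose pattern over the 5 libraries was most like that of the summed members were found by the root mean square difference of centred log2 CPM. The closest tested symbol, leaving out Rhox, Gm-numbered and Rik symbols, was Zscan4a, a zinc-finger gene of the 2-cell embryo, at 0.160. It stood at 1.95 and 2.21 CPM in the deleted and at 0.386, 0.411 and 0.268 CPM in the wildtype libraries. The search picked Zscan4a for this likeness. Its order of libraries, higher in deleted 2 than in deleted 1 and highest in wildtype 2 among wildtype libraries, is therefore no separate result. Next came Rhoh at 0.166, BC080695 at 0.168, Tmem92 at 0.173 and Slc10a4, a transporter-family gene, at 0.199. Of these 5, Zscan4a alone met the low-count filter in at least 2 wildtype libraries. All 11 tested genes of the 2-cell-like list were higher, with a median log2 fold change of 2.41, beside 19% higher over all tested symbols. Of the 11, 5 met the filter only through the deleted libraries, and 40.9% of all such symbols were called higher. Without deleted 1, 8 of the 11 were called. Requiring 10 counts in every library left 5 tested, all 5 higher.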

How the data were processed

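RNA of 2 deleted and 3 wildtype mESC libraries was analysed from 1 table of read counts per exon bin that the authors deposited, with 243771 bins. Per the submitters' processing notes, STAR was used and the build was mm9; no version is listed. Annotation, strand setting and handling of multiply matching reads: none is given in the sources used here. Spike-in rows (under 0.001% of counts) were left out.

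Bin counts were summed per gene, filtered (filterByExpr), given TMM factors and fitted with the robust quasi-likelihood method of edgeR 4.0.16 in R 4.3.3, with Benjamini-Hochberg adjustment over all tested genes and a threshold of 0.05. SE is the log2 fold change over the root of F. In counts simulated for 16259 genes, 200 drawn from all levels were changed. Of genes changed 1.5-fold, 2-fold and 4-fold, 55.2%, 80.6% and 97.0% passed the test, and 7.74% of 168 calls were wrong. In the data 6453 genes were called, so these rates need not hold there or at the low Rhox levels. For family values, copies were replaced by their sum and the whole table refitted. Sequences were aligned with Biopython 1.88 and MAFFT 7.526.

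The members and all lists were chosen with earlier results of these data known. Named genes were all Rhox symbols with rows, tested neighbours, up to 4 genes per list by p and the 5 nearest in pattern; some are given by count only, and some results that this rule names are not reported here. Alternatives were RLE scaling, TMM from symbol rows, other filters, DESeq2 1.42.0, the most counted bin, a replicate block and leaving out each library. Chi-square per degree of freedom was 22.0 between the deleted libraries and 10.0 between wildtype 1 and wildtype 2. For wildtype 3, the deepest library, it was 93.6 against wildtype 1 and 87.6 against wildtype 2. No libraries were merged.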

Additional observations from a re-analysis of the deposited data

How the results depend on the processing

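Signs of member values were fixed by how the members were chosen, and lists with 0 tested genes could not move. With the most counted bin alone, the listed Rhox4 copies had a log2 fold change of 4.94, where bin 2 of Rhox4a and Rhox4b held 2 wildtype counts in all. That setting called 2 DNA methylation, 2 silenced germline and 0 of 2 tested fibroblast genes, and 771 symbols. Without a filter 4 unlisted Rhox symbols were called. With 10 counts in every library, 3 paired-like, 5 two-cell-like and 3 X-linked reproductive genes were called, from fewer tested genes. With 1 library left out, calls ranged from 3555 to 8347 over all genes, 613 to 1252 over symbols, 0 to 1 for unlisted Rhox, 1 to 6 for fibroblast, 1 to 4 for silenced germline, 1 to 5 for paired-like and 8 to 11 for two-cell-like genes. The lowest totals were without deleted 1, where the single deleted library left takes its spread from the wildtype libraries. Small uncalled values changed sign for Gata4 (0.019 in the most counted bin, -0.19 to 0.11 with a library left out) and Amh (-0.94 to 0.49 with a library left out). The replicate numbers are not known to pair libraries. The difference between deleted 1 and 2 had a correlation of -0.0015 over genes with that between wildtype 1 and 2. With the replicate block, 8200 genes were called and the summed members had a log2 fold change of 2.30, Rhox2c 1.80 and Rhox2h 3.69. Depth limits every value here, since wildtype libraries held 0 to 19 counts per member.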
